A study of Mus musculus with 4 samples.

Results

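The contractile apparatus of smooth muscle was followed through 35 genes in whole urogenital sinus (UGS), the embryonic structure from which the bladder neck, urethra and prostate arise. The genes are a list of smooth muscle contractile and cytoskeletal components, matched by symbol to the deposited expression table, and all 35 were found among its 25819 rows. The rule that picked them uses symbols only, but the list was chosen with earlier results of these data known. RNA was taken from male wild type and Tbx18GFP/GFP embryos at the embryonic stages E16.5 and E18.5 (E, embryonic day), and each of the 4 libraries is a pool of RNA from 3 embryos. Tbx18GFP/GFP embryos are homozygous for a null allele of the T-box transcription factor Tbx18 that carries GFP, the wild type embryos were their littermates, and the mouse lines of the study were on a B6C3-F1 hybrid background. The UGS was sampled whole, so that fewer smooth muscle cells and less RNA per smooth muscle cell cannot be told apart.

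Smooth muscle shortens when myosin filaments pull on actin filaments. Phosphorylation of the myosin regulatory light chain by myosin light chain kinase starts the cycle, and myosin phosphatase ends it. The actin filaments are held by dense bodies inside the cell and by dense plaques at its surface, which are joined by intermediate filaments, while calponin, caldesmon, transgelin and tropomyosin lie along the thin filament. Many of these genes are known targets of serum response factor (SRF), which binds a short DNA element called the CArG box and works with its coactivator myocardin. In the UGS the smooth muscle forms in the mesenchyme around the epithelium.

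Since each combination of genotype and stage is a single pooled library, there is no replicate error, no test and no p-value, and a ratio compares 2 libraries. Values are FPKM (fragments scaled to transcript length and to the mapped reads of the library), a level per length that allows genes to be compared, and ratios are log2 ratios of FPKM without a pseudocount. Ratios count as changed in the text only past a stated fold. Where 4 values of a gene follow each other unnamed, they are those of wild type and mutant at E16.5, then of wild type and mutant at E18.5. The libraries held about 64000000, 55700000, 29100000 and 52400000 mapped reads for UGS of E16.5 wild type, E16.5 Tbx18GFP/GFP, E18.5 wild type and lastly E18.5 Tbx18GFP/GFP embryos, as estimated from the FPKM of single reads. No member had fewer than about 377 reads in a library, and counting error was therefore small beside most ratios. The lowest value of any member was 1.25 FPKM, and 31 of the 35 had at least 10 FPKM in all 4 libraries. The E18.5 wild type library stood apart in all genes. It was the shallowest, it held the lowest of the 4 values for 63.7% of 15023 genes, and the ratios against it followed the GC content of the transcripts (Spearman's rho 0.425 over 13031 genes for E18.5 Tbx18GFP/GFP over wild type, against 0.011 over 13498 genes at E16.5). Genes that reached 1 FPKM in both E18.5 libraries had a median log2 ratio of 0.29. The E18.5 median of the members and some counts are therefore also given relative to that median. They are also given after subtraction of a smooth trend fitted to length and GC content. E18.5 ratios of single genes are as deposited unless stated otherwise. The level of Tbx18 itself was 3.47 FPKM (wild type) and 2.50 FPKM (Tbx18GFP/GFP) at E16.5, then 3.16 FPKM (wild type) and 2.93 FPKM (Tbx18GFP/GFP) at E18.5. The table gives 1 value per gene, in which RNA from the knock-in allele may be counted, so these levels do not check the genotype.

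The promoters of the members were searched for the CArG box because it is the element through which SRF binds this class of gene. RefSeq windows of 300 bases, from 250 before to 50 after a gene's start on GRCm38.p6, were held for 32 of the 35 members, and the windows of Actg2, Myh11 and Tagln were not among them. The box is 10 bases long and reads the same on both strands as a pattern, so that a search of one strand covers both. It was present in a window of 5 of the 32 members (15.6%) and of 488 of 27025 genes (1.81%). The members were Cnn2, Myl9, Myl6, Vcl and Filip1l. Allowing 1 of the 6 central A or T positions to be G or C, a pattern chosen after the first search, gave 9 members (28.1%) and 11.3% of all genes, and added Acta2, Synm, Hspb6 and Pdlim3. The stretches around the boxes of the first 5 genes and of Acta2, whose promoter held 2 boxes of the wider pattern, are shown on the strand of the gene, 5′ to 3′, with the box in capitals.
Acta2, chr19:34255428-34255477, minus strand, box starting 84 bases before the gene's start: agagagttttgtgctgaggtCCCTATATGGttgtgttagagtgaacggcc
Acta2, chr19:34255378-34255427, minus strand, 34 bases before: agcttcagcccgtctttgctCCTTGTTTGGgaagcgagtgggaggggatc
Cnn2, chr10:79988524-79988573, plus strand, 56 bases before: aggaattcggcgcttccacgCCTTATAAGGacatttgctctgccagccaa
Myl6, chr10:128493030-128493079, minus strand, 50 bases before: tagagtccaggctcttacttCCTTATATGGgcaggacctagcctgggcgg
Myl9, chr2:156775283-156775332, plus strand, 161 bases before: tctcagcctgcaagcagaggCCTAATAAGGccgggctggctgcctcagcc
Vcl, chr14:20929151-20929200, plus strand, 227 bases before: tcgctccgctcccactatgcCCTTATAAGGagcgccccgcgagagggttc
Filip1l, chr16:57549160-57549209, plus strand, 62 bases before: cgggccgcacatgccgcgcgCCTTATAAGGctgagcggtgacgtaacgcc

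The same box letters stood before Cnn2, Vcl and Filip1l, whose ratios were not alike. At E18.5 the log2 ratio of Tbx18GFP/GFP over wild type was 1.31 for Cnn2, 0.53 for Vcl and -1.22 for Filip1l. The 5 members with the full box had median log2 ratios of -0.20 at E16.5 and 0.89 at E18.5, and the 27 with a window and no full box had -0.28 and 0.66. A match is a description of these letters and not of a bound site.

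The members were mostly lowest in E16.5 Tbx18GFP/GFP UGS and highest in E18.5 Tbx18GFP/GFP UGS. Their summed level was 4023 FPKM in E16.5 wild type, 3075 in E16.5 Tbx18GFP/GFP, 4214 in E18.5 wild type and 8356 in E18.5 Tbx18GFP/GFP UGS, which is 0.874%, 0.621%, 1.12% and 1.66% of all FPKM in the library. E16.5 Tbx18GFP/GFP was the lowest and E18.5 Tbx18GFP/GFP the highest of the 4 libraries for 21 of 35 members, against 2.39% of all genes that reached 1 FPKM in any library. With the E18.5 wild type library left out, a choice made after seeing the data, the order E16.5 Tbx18GFP/GFP, E16.5 wild type, E18.5 Tbx18GFP/GFP held for 32 of 35 members and for 11.8% of all genes. E18.5 wild type was the highest library for 4 members (21.9% of all genes), Cald1, Ppp1r12b, Hspb6 and Filip1l, and for 11 members (42.4%) with the column sums of the libraries made equal.

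**Figure D1:**
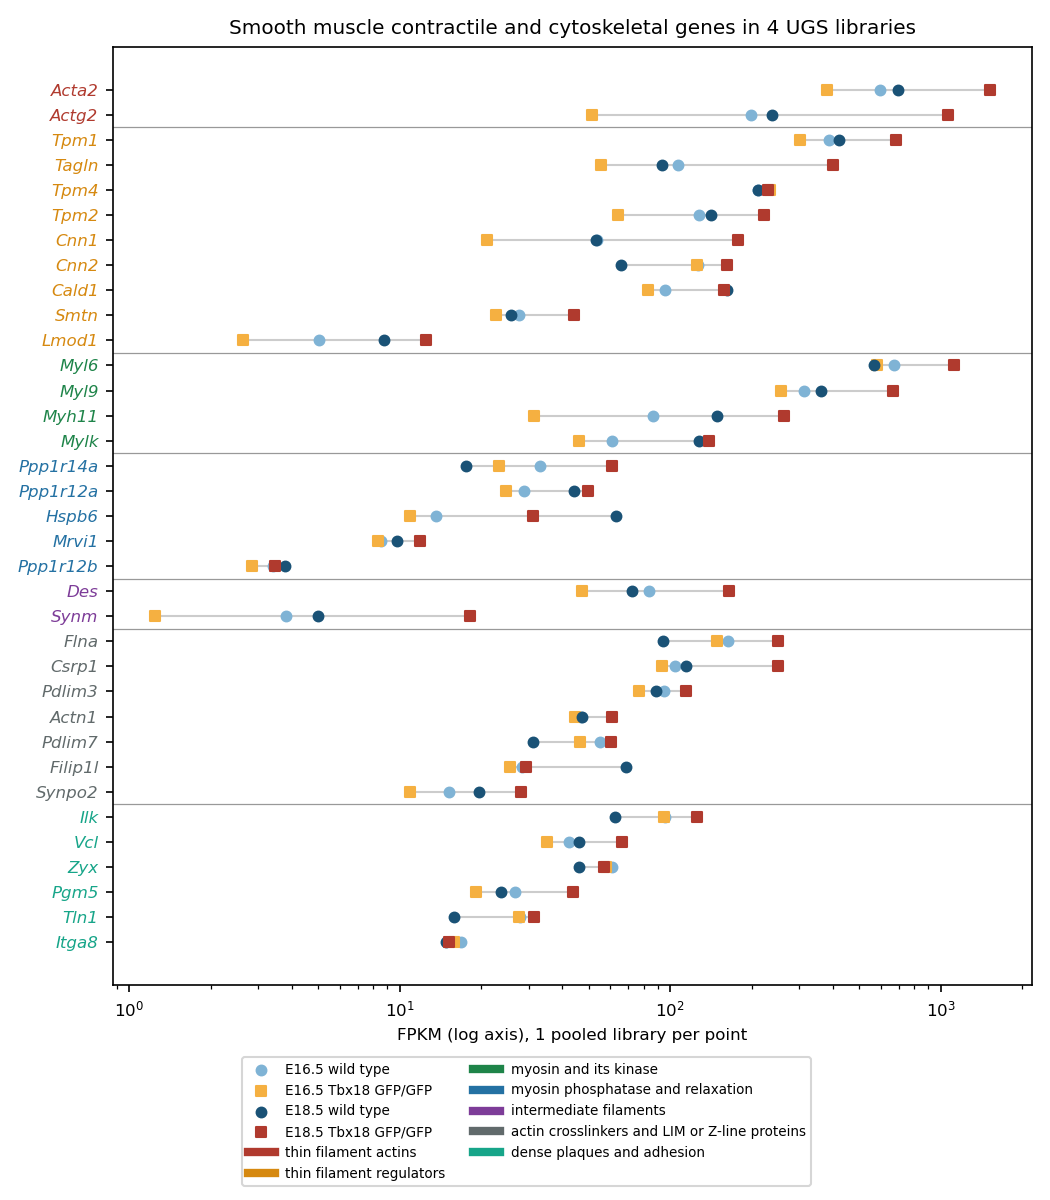
FPKM of the 35 genes on a log axis, grouped by role, with 1 point per pooled library and a grey line from the lowest to the highest value. The squares of Tbx18GFP/GFP UGS mark both ends of the line for 21 genes, most widely for Actg2 (51.6 to 1064 FPKM) and Synm (1.25 to 18.3 FPKM).

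The first question was how the contractile genes differed between genotypes at each stage. At E16.5 the members were lower in Tbx18GFP/GFP than in wild type UGS in 34 of 35 cases, against 45.7% of all genes tested, with a median log2 ratio of -0.28 against 0.01 over all genes. This count is of direction only, and the differences of Cnn2, Ilk, Tln1 and Mrvi1 lay within counting error. At least 1.5-fold lower were 9 members (2.72% of all genes), which were Acta2, Actg2, Cnn1, Tagln, Tpm2, Lmod1, Myh11, Des and Synm. The study had reported Acta2, Actg2, Cnn1, Tagln and Myh11 as lower at E16.5 from these libraries, so the counts are not independent of that report. At least 2-fold lower were 4 members (1.17% of all genes), namely Actg2, Cnn1, Myh11 and Synm. None was 1.5-fold higher (1.44% of all genes), and 26 members lay within 1.5-fold. At E18.5 the members were higher in Tbx18GFP/GFP UGS in 31 of 35 cases, but so were 69.5% of all genes, with medians of 0.77 against 0.31. At least 1.5-fold higher were 20 members (33.2% of all genes), and 10 were at least 2-fold higher (15.1%). Relative to the median of all genes, 16 members were at least 1.5-fold higher (19.7% of all genes), and after the length and GC trend was subtracted 9 did (11.8%). Only Hspb6 and Filip1l were at least 1.5-fold lower (7.60% of all genes). From these libraries the study had listed muscle protein, sarcomere and calponin-like categories among those up-regulated at E18.5, for genes it assigned to the mesenchyme. The E18.5 counts are therefore not independent of its report either. Lower at E16.5 and higher at E18.5 were 30 members (29.7% of all genes), or 24 (22.5%) with the trend subtracted. At least 1.5-fold lower at E16.5 and at least 1.5-fold higher at E18.5 were 8 members (0.726% of all genes), or 5 (0.209%) with the trend subtracted, namely Acta2, Actg2, Cnn1, Synm and Tagln.

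**Figure D2:**
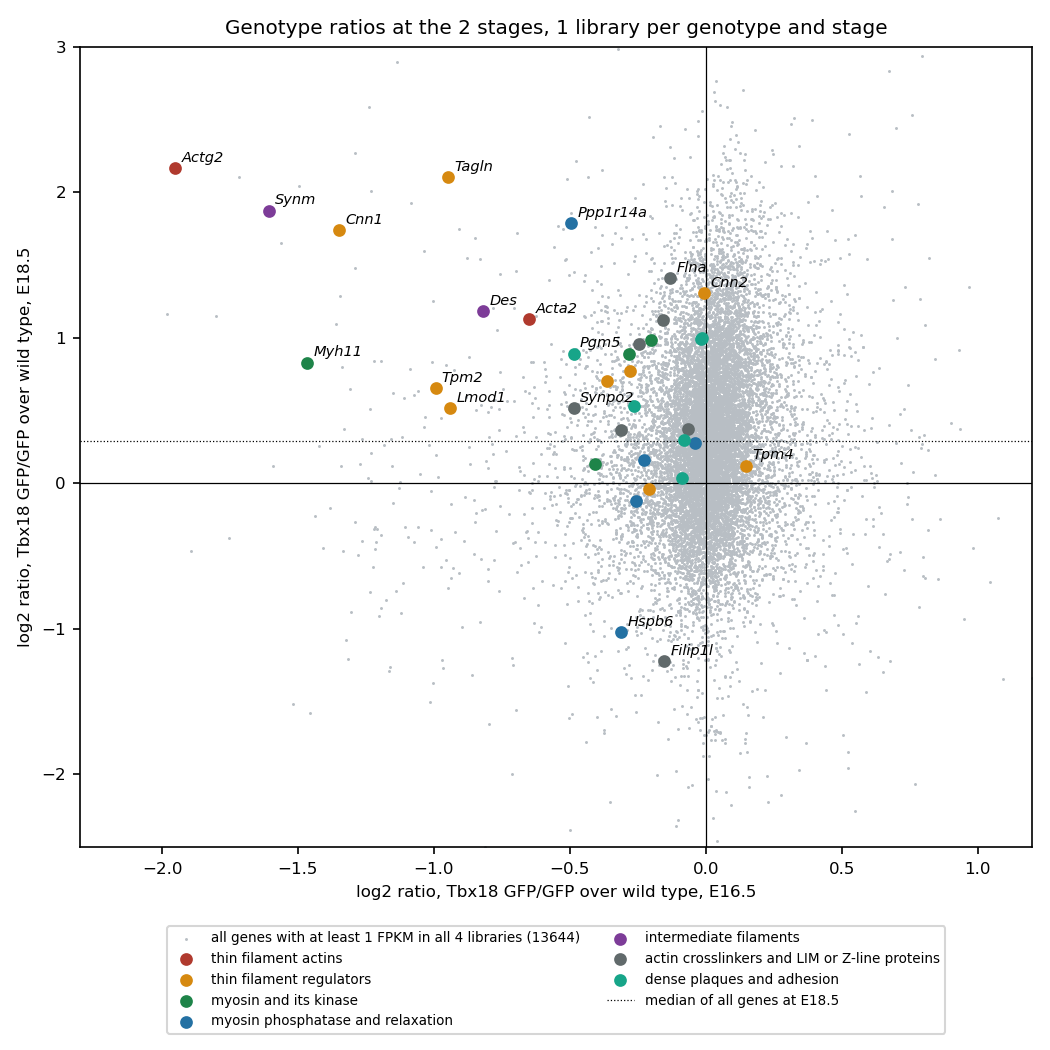
Log2 ratio of Tbx18GFP/GFP over wild type at E16.5 (horizontal axis) and at E18.5 (vertical axis), for the 35 genes in colours by role and for 13644 genes with at least 1 FPKM in all 4 libraries in grey, of which 36 lie outside the axes. Actg2, Synm, Cnn1 and Tagln stand at the upper left, lower than wild type at E16.5 and higher at E18.5, and the dotted line is the median of all genes at E18.5 (0.29).

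The second question was how the members changed with stage within each genotype. In wild type UGS the median log2 ratio of the members was 0.12 for E18.5 over E16.5, against -0.35 over all genes. Of the 35, 22 lay within 1.5-fold, 7 rose at least 1.5-fold (6.80% of all genes) and 6 fell at least 1.5-fold (35.9% of all genes). In Tbx18GFP/GFP UGS, 32 of 35 members were higher at E18.5 than at E16.5, against 35.3% of all genes, and the median log2 ratio was 1.01 against -0.06. At least 1.5-fold higher were 23 members (3.00% of all genes), 18 were at least 2-fold higher (1.35%), and none was at least 1.5-fold lower (1.68%). This comparison does not use the E18.5 wild type library, but it shares the E16.5 mutant library with the E16.5 genotype ratio. The rise with stage was larger in Tbx18GFP/GFP than in wild type UGS for 32 members, with Hspb6, Filip1l and Tpm4 as the exceptions, but it was so for 70.5% of all genes. As deposited, a larger rise in the mutant is by arithmetic the same as a higher genotype ratio at E18.5 than at E16.5, so it is not a separate result. With the trend subtracted the counts were 30 members and 52.2% of all genes.

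**Figure D3:**
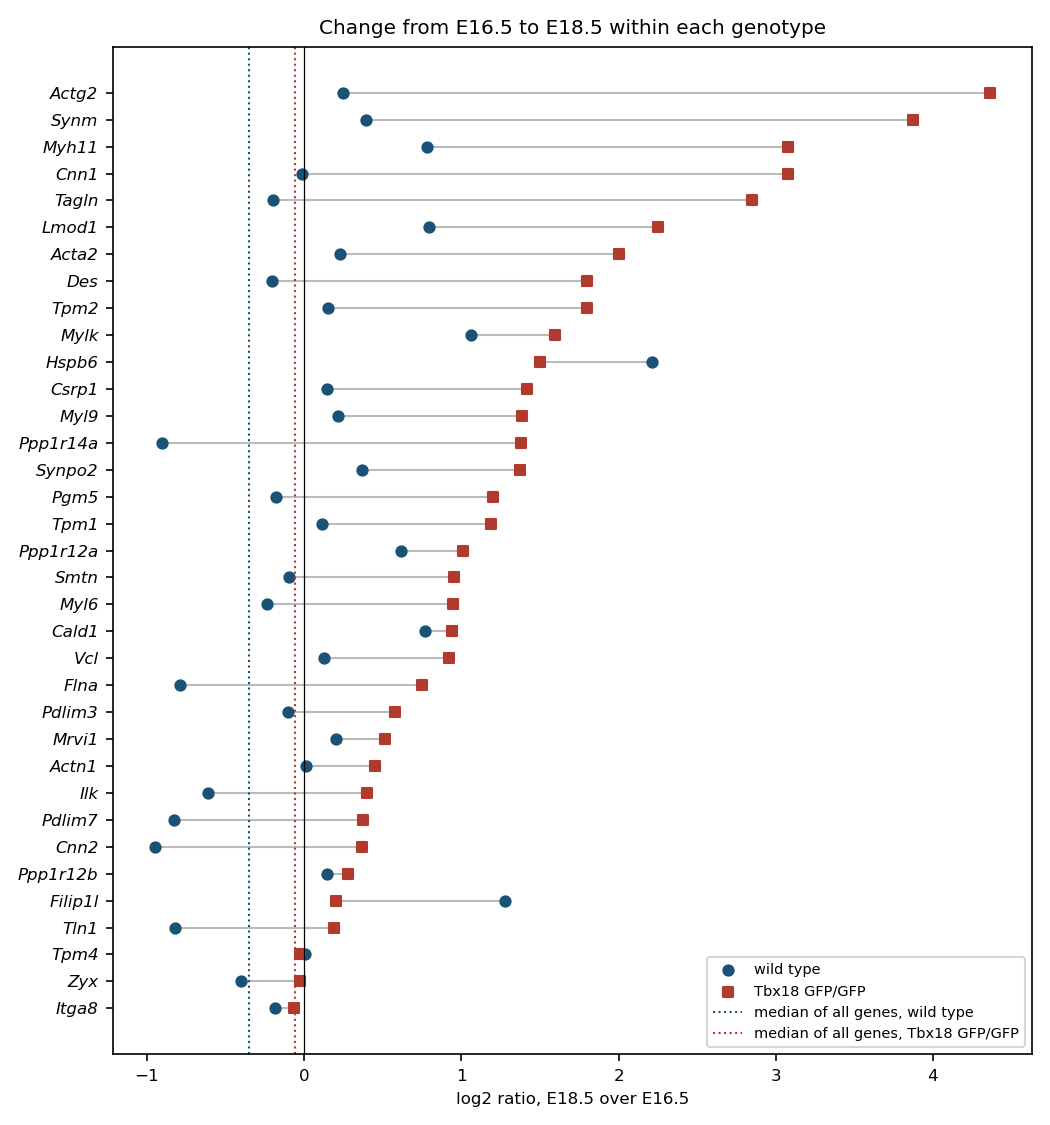
Log2 ratio of E18.5 over E16.5 for each gene within wild type (circles) and within Tbx18GFP/GFP UGS (squares), 1 library per genotype and stage. The circles lie mostly near 0 while the squares reach 4.36 for Actg2, and the dotted lines are the medians of all genes (-0.35 and -0.06).

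The actins form the thin filament. Acta2, the smooth muscle α-actin of vessels and stroma (chromosome 19, 34315581 to 34329826 in the coordinates of the deposited table), had 597 FPKM in E16.5 wild type, 381 in E16.5 Tbx18GFP/GFP, 698 in E18.5 wild type and 1526 in E18.5 Tbx18GFP/GFP UGS. Actg2, the γ-actin of visceral smooth muscle (chromosome 6, 83462903 to 83486245), had 200 FPKM in E16.5 wild type, 51.6 in E16.5 Tbx18GFP/GFP, 237 in E18.5 wild type and 1064 in E18.5 Tbx18GFP/GFP UGS. Both were lowest in the E16.5 mutant and highest in the E18.5 mutant, and Actg2 moved further. Actg2 was 3.87-fold lower at E16.5 (log2 ratio -1.95, 95% counting interval -2.01 to -1.90) and 4.48-fold higher at E18.5 (2.16, interval 2.13 to 2.199, and 1.54 after the trend was subtracted), and it rose 20.6-fold with stage in Tbx18GFP/GFP UGS against 1.19-fold in wild type UGS. The intervals cover counting error only. Acta2 was 1.57-fold lower at E16.5 and 2.19-fold higher at E18.5 (log2 ratio 1.13, and 0.71 after the trend was subtracted). The coding sequences of Acta2 and Actg2 were 84.4% identical, and each shares similar identity with the striated muscle actins (Acta2 with Acta1, 85.4%). The longest shared run was 29 bases in both pairs, and 56 bases for Acta2 with the cytoplasmic actin Actg1. Whether reads were divided uncertainly between the actins was not tested. Myl9 was 86.4% identical to the non-muscle light chain Myl12b and Tpm1 was 77.8% identical to Tpm2, with a longest shared run of 35 bases in both pairs.

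The regulators of the thin filament divided into genes with large and small ratios. Cnn1, the basic calponin of differentiated smooth muscle, had 53.8 FPKM in E16.5 wild type, 21.1 in E16.5 Tbx18GFP/GFP, 53.3 in E18.5 wild type and 178 in E18.5 Tbx18GFP/GFP UGS. Tagln, which encodes transgelin (SM22), had 107, 55.6, 93.4 and 401 FPKM in the same order. The wild type libraries of both genes were within 1.5-fold of each other, and the mutant libraries lay below them at E16.5 and above them at E18.5. Cnn1 was 2.55-fold lower at E16.5 and 3.34-fold higher at E18.5, and Tagln was 1.93-fold lower and 4.30-fold higher. Tpm2, the β-tropomyosin, had 128, 64.0, 141 and 223 FPKM, and its E18.5 log2 ratio of 0.66 was -0.0015 after the trend was subtracted. Tpm1, the α-tropomyosin, had 388, 301, 420 and 686 FPKM. Lmod1, a leiomodin that nucleates actin filaments in smooth muscle, had 5.05, 2.63, 8.75 and 12.5 FPKM. Lmod1 was the lowest expressed gene of this group and was 1.92-fold lower at E16.5. Smtn, which encodes the actin-binding smoothelin of contractile smooth muscle, had 27.5, 22.7, 25.8 and 44.0 FPKM, and its log2 ratio at E18.5 was 0.77 as deposited and -0.015 after the trend was subtracted. Cald1, which encodes caldesmon, had 95.5, 82.6, 162 and 158 FPKM, with a rise of similar size in both genotypes. Cnn2, a calponin also found outside muscle, had 127 and 126 FPKM in wild type and mutant at E16.5, then 65.7 and 163 FPKM at E18.5, with E18.5 wild type the lowest of the 4. Tpm4, a tropomyosin of many cell types, lay between 211 and 234 FPKM in all 4 libraries.

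Myosin and its kinase drive contraction. Myh11, the smooth muscle myosin heavy chain, had 86.4 FPKM in E16.5 wild type, 31.3 in E16.5 Tbx18GFP/GFP, 149 in E18.5 wild type and 264 in E18.5 Tbx18GFP/GFP UGS. It was 2.76-fold lower at E16.5 and 1.78-fold higher at E18.5, and it rose 8.45-fold with stage in Tbx18GFP/GFP against 1.72-fold in wild type UGS. Its light chains had smaller ratios at E16.5 and with stage in the mutant. As deposited they did not at E18.5, where Myl9 was 1.85-fold and Myl6 1.98-fold higher. With the trend subtracted the E18.5 log2 ratios were 0.096 for Myl9, 0.47 for Myl6 and 0.55 for Myh11. Myl9, the regulatory light chain, had 312, 256, 361 and 669 FPKM, and Myl6, the essential light chain shared with non-muscle myosin, had 671, 583, 568 and 1124 FPKM. Mylk, the light chain kinase, had 61.2, 46.2, 128 and 140 FPKM. Mylk was the member of this group with the smallest E18.5 log2 ratio as deposited (0.13, and -0.13 after the trend was subtracted). It had risen at least 2-fold with stage in both genotypes.

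The phosphatase and relaxation genes did not move as one. Ppp1r12a, the myosin-targeting subunit of the phosphatase, had 28.9, 24.7, 44.3 and 49.6 FPKM, and its relative Ppp1r12b had between 2.85 and 3.77 FPKM in all 4 libraries. Ppp1r14a, the phosphatase inhibitor CPI-17, had 32.9, 23.3, 17.6 and 60.7 FPKM. The E18.5 ratio of Ppp1r14a (3.45-fold) came with its lowest value in E18.5 wild type UGS, and the log2 ratio fell from 1.79 to 0.78 once the trend was subtracted. Mrvi1, a target of cGMP-dependent kinase in smooth muscle relaxation, lay between 8.29 and 11.9 FPKM. Hspb6, the small heat shock protein HSP20, had 13.6, 11.0, 63.1 and 31.1 FPKM. It rose with stage in both genotypes, 4.64-fold in wild type and 2.83-fold in Tbx18GFP/GFP UGS, and it was 2.03-fold lower in the mutant at E18.5.

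The intermediate filament genes followed the actins. Des, which encodes desmin, had 83.5 FPKM in E16.5 wild type, 47.3 in E16.5 Tbx18GFP/GFP, 72.6 in E18.5 wild type and 165 in E18.5 Tbx18GFP/GFP UGS. Synm, whose product synemin copolymerises with desmin, had 3.80, 1.25, 4.98 and 18.3 FPKM. Synm had the second widest span of the members. It was 3.05-fold lower at E16.5 (log2 ratio -1.61, counting interval -1.75 to -1.47) and 3.67-fold higher at E18.5 (1.88, interval 1.78 to 1.97). The E18.5 log2 ratio of Synm was 1.72 after the trend was subtracted, and the gene rose 14.7-fold with stage in the mutant. Desmin and synemin are also made by skeletal muscle.

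The crosslinking, LIM and Z-line proteins gave small ratios at E16.5, where none of the 7 reached 1.5-fold. Flna, the actin crosslinker filamin A, had 163, 149, 94.4 and 251 FPKM. Csrp1, a LIM protein of smooth muscle, had 104, 93.3, 115 and 250 FPKM. Both were at least 2-fold higher in the mutant at E18.5, where Flna had its lowest value in wild type UGS and Csrp1 did not. With the trend subtracted the log2 ratio was 1.16 for Flna (1.41 as deposited) and 0.45 for Csrp1 (1.12 as deposited). Synpo2, a binding partner of filamin and α-actinin, had 15.2, 10.9, 19.7 and 28.2 FPKM. Pdlim7 had 55.1, 46.5, 31.1 and 60.3 FPKM, Pdlim3 had 95.1, 76.7, 88.7 and 114 FPKM, and Actn1, the α-actinin of dense bodies, had 46.7, 44.6, 47.1 and 60.9 FPKM. Filip1l, a filamin-interacting protein homologue, had 28.4, 25.5, 68.7 and 29.4 FPKM. It stood apart in one library, with E18.5 wild type at least 2-fold above each of the others, and its log2 ratio at E18.5 was -1.22.

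The dense plaque genes had the smallest median ratio of the roles at E16.5. Vcl (vinculin) had 42.3, 35.2, 46.1 and 66.5 FPKM, and Pgm5, which encodes a plaque protein related to phosphoglucomutase, had 26.7, 19.1, 23.6 and 43.9 FPKM. Ilk (integrin-linked kinase) had 95.9, 95.0, 62.7 and 125 FPKM, and Tln1 (talin) had 27.9, 27.6, 15.8 and 31.5 FPKM. For Ilk and Tln1 the E16.5 libraries were within 1.5-fold of each other and the E18.5 wild type value was the lowest of the 4. Zyx (zyxin) lay between 46.2 and 61.1 FPKM and Itga8, the α8 integrin of mesenchyme and smooth muscle, between 14.8 and 16.9 FPKM. By role, the median log2 ratio at E16.5 was -1.30 for the actins, -1.21 for the intermediate filament genes, -0.36 for the thin filament regulators, -0.34 for myosin and its kinase, -0.26 for the phosphatase genes, -0.16 for the crosslinkers and -0.08 for the plaque genes.

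Ratios of 2 genes within one library do not depend on the scaling between libraries, but a trend with length or GC content can still move them. Actg2 stood to Acta2 as 0.334 in E16.5 wild type, 0.136 in E16.5 Tbx18GFP/GFP, 0.340 in E18.5 wild type and 0.697 in E18.5 Tbx18GFP/GFP UGS. The ratio was alike in both wild type libraries, lower in the E16.5 mutant and higher in the E18.5 mutant. Smooth muscle against non-muscle partners gave the same directions for Myh11 over Myh9, the non-muscle myosin heavy chain, at E16.5 (1.38 in wild type and 0.496 in Tbx18GFP/GFP) and at E18.5 (2.93 and 4.50). Acta2 over Actb, cytoplasmic β-actin, was 0.490 and 0.299 at E16.5 and 0.658 and 1.17 at E18.5. Des over Vim, the intermediate filament protein of mesenchyme, was 0.211 and 0.122, then 0.202 and 0.391. In all 14 pairs of related genes set side by side the ratio was lower in the E16.5 mutant than in wild type, and in 12 of them it was higher in the E18.5 mutant. These counts are of direction only. The pairs were chosen with earlier results of these data known, and some genes recur among them. No share over other gene pairs was taken, so the counts add no separate evidence to the ratios of the single genes. The smallest E16.5 differences were 1.02-fold, for Actn1 over Actn4 and for Ppp1r12b over Ppp1r12a. The exceptions at E18.5 were Myh11 over Myl9 (0.411 and 0.396) and Ppp1r12b over Ppp1r12a (0.0851 and 0.0697). With the trend subtracted the E18.5 ratio was higher in the mutant for 13 pairs. The log2 change was then 0.45 for Myh11 over Myl9 and -0.51 for Ppp1r12b over Ppp1r12a.

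**Figure D4:**
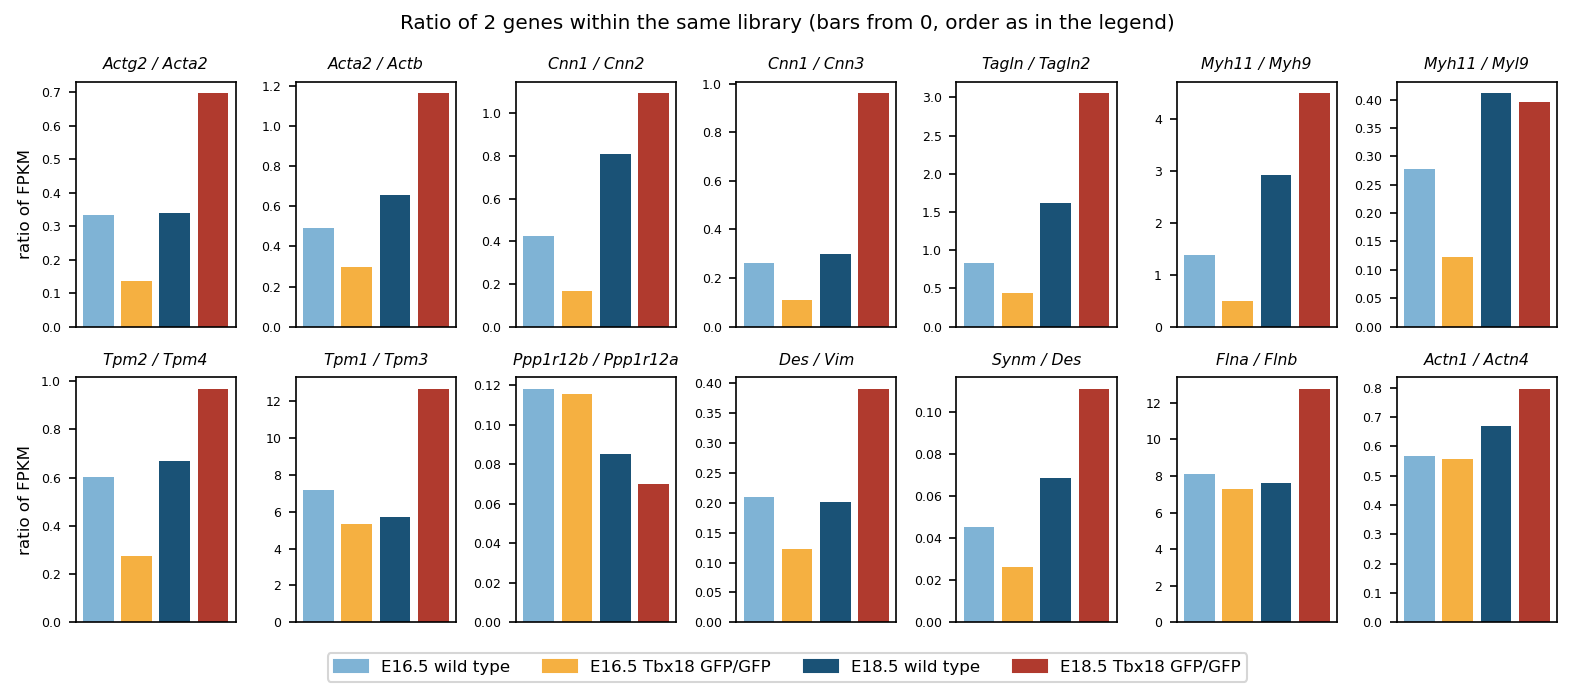
Ratio of the FPKM of 2 genes within the same library for 14 pairs, with bars from 0 and 1 bar per pooled library. Actg2 over Acta2 is 0.136 in E16.5 Tbx18GFP/GFP and 0.697 in E18.5 Tbx18GFP/GFP UGS, on either side of the wild type bars at 0.334 and 0.340.

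Other genes of the apparatus were described for comparison. Of 42 further contractile and plaque genes with at least 1 FPKM, 33 were lower at E16.5, with a median log2 ratio of -0.16 and 3 at least 2-fold lower, and 33 were higher at E18.5, with a median of 0.32 and 7 at least 2-fold higher. The E18.5 values were near those of all genes given above, and the list's median was 0.04 once centred on all genes. From E16.5 to E18.5 in Tbx18GFP/GFP UGS, 31 were higher and 6 at least 2-fold so. Jph2, a junctional membrane protein of muscle, had 8.35, 3.54, 2.39 and 14.3 FPKM, and Lims2, a partner of integrin-linked kinase, had 3.58, 1.69, 2.59 and 9.86 FPKM. Both were at least 2-fold lower at E16.5 and at least 2-fold higher at E18.5 in the mutant, while Tagln2, the transgelin of other cell types, had 128, 126, 57.5 and 131 FPKM. The non-muscle genes gave a median of 0.02 at E16.5 and 0.23 at E18.5 over 7 genes, with Actb at 1218, 1273, 1061 and 1309 FPKM and Vim at 397, 387, 360 and 422 FPKM. The 7 transcription factor genes of smooth muscle, myocardin and SRF among them, had medians of -0.11 at E16.5 and -0.18 at E18.5, and none reached 1.5-fold between genotypes as deposited. The study names Mef2a, Mef2c and Mef2d among its down-regulated genes at E18.5. Relative to the median of all genes their E18.5 median was -0.47, and 3 of them, Mkl2, Mef2a and Mef2c, were then at least 1.5-fold lower in the mutant. With the trend subtracted the median was -0.47 and Mkl1 and Mef2d were at least 1.5-fold lower.

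Markers of another muscle moved with the members at E16.5. Of 25 skeletal muscle markers 22 had at least 1 FPKM, and all 22 were at least 1.5-fold lower in Tbx18GFP/GFP UGS. Their median log2 ratio of -1.19 was further from wild type than that of the members (-0.28). At least 2-fold lower were 17 of the 22, against 4 of the 35 members. The summed level of the list was 1351 FPKM in wild type and 605 in the mutant. At E18.5 the sums were 789 and 1073 FPKM, but 14 of 21 markers were lower in the mutant, with a median of -0.31. The highest of the list in the E18.5 mutant was Acta1, skeletal α-actin, with 231, 81.8, 111 and 455 FPKM in the 4 libraries. Several members, among them Des, Synm, Tpm1 and Tpm2, are also expressed in striated muscle, and its part in their E16.5 ratios was not tested. The 8 cardiac markers had sums of 321, 155, 214 and 493 FPKM, most of it Actc1 with 250, 122, 113 and 341 FPKM. Of those with at least 1 FPKM, 4 of 5 were lower in the mutant at E16.5, and 4 were higher and 3 lower at E18.5, Myh6, Myh7 and Tnni3 being lower. The defining smooth muscle markers Myh11, Cnn1 and Tagln were well expressed in all 4 libraries. Pericyte markers had sums of 103, 111, 85.8 and 119 FPKM and fibroblast markers 3230, 3483, 3513 and 4185 FPKM. Endothelial sums were 124, 142, 124 and 133 FPKM, epithelial sums 756, 644, 702 and 867 FPKM, neuron and glia sums 441, 354, 274 and 362 FPKM, and macrophage sums 30.7, 39.0, 36.4 and 39.3 FPKM. Erythroid markers, at 12230, 19620, 3805 and 17300 FPKM, were lowest in the E18.5 wild type library. Medians and counts with column sums taken without them are given in the closing section, and their part in the ratios was not tested.

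**Figure D5:**
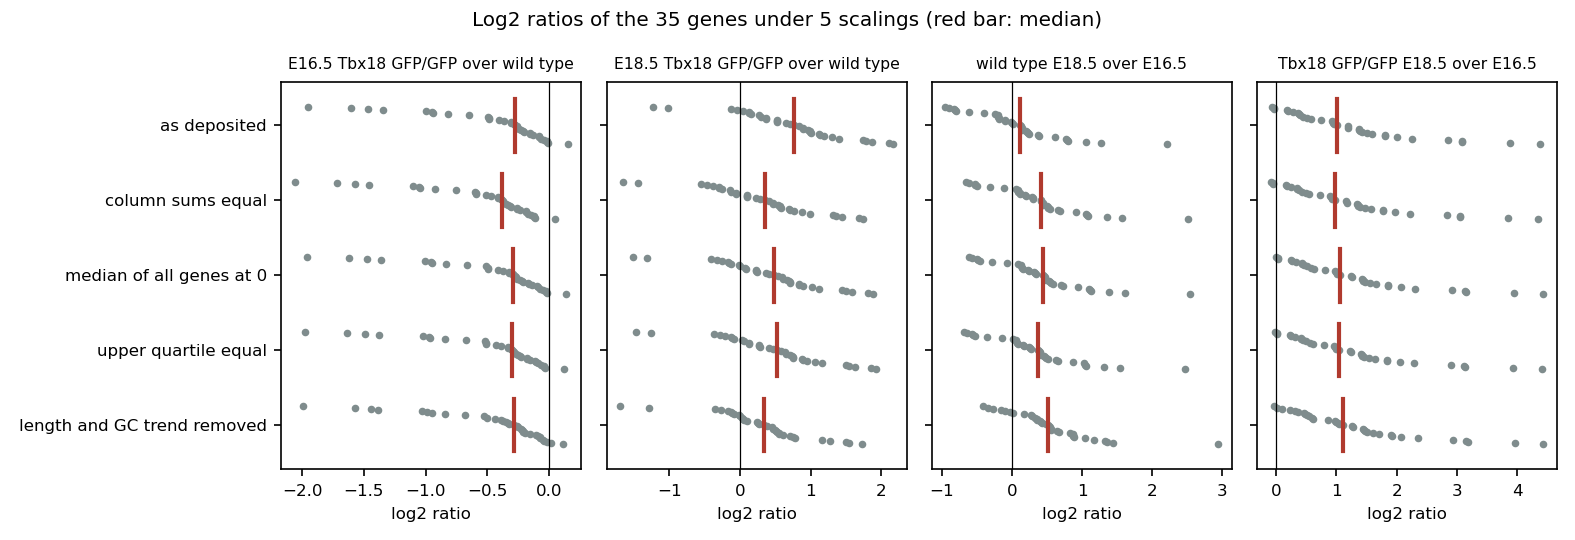
Log2 ratios of the 35 genes in the 4 comparisons under 5 scalings between libraries, with 1 point per gene and a red bar at the median. The median at E16.5 is -0.28 as deposited and -0.38 with equal sums, while the E18.5 median is 0.77 as deposited and between 0.34 and 0.53 under the other scalings.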

How the data were processed

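RNA of whole UGS from 3 male embryos per library was sequenced as single-end reads on an Illumina HiSeq after preparation with a stranded mRNA kit. The submitters' processing notes name CASAVA 1.8.2, Trimmomatic 0.30, TopHat2 2.1.0 and Cufflinks 2.2.1, and the genome build is not given in the sources used here. The authors deposited FPKM from Cufflinks in one table of 4 columns, scaled to transcript length and mapped reads, and 0 columns belonged to no sample of the series. Genes that reached 1 FPKM in one of the libraries compared were described by log2 ratios without a pseudocount and counted at 1.5-fold and 2-fold. With 1 library per group no test was applied.

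Depth was estimated from olfactory receptor genes of 900 to 1000 bases holding single reads, and 95% counting intervals are exact binomial intervals on the estimated reads. A lowess trend (span 0.3) on transcript length and then GC content, taken by symbol from a GRCm38 annotation, was subtracted as an alternative, as tested on simulated data. Other alternatives were column sums made equal, centring on the median, upper quartile scaling (75th percentile), pseudocounts of 0.1 and 1, at least 5 FPKM, no filter, and repeated symbols left out. All 35 members are named, with, from other lists, genes at least 2-fold changed and a few reference genes. Skeletal and cardiac actin were added after their values were seen, and Myl12a was not found in the table. The members and lists were chosen with earlier results of these data known. Biopython 1.88, matplotlib 3.10.9, statsmodels 0.14.6, scipy 1.17.1, pandas 2.3.3 and numpy 2.4.6 were used in Python 3.11.15.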

Additional observations from a re-analysis of the deposited data

Results flagged for a closer look

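For 8 members the genotype ratio had opposite signs at the 2 stages, at least 1.5-fold lower in Tbx18GFP/GFP UGS at E16.5 and at least 1.5-fold higher at E18.5, as were 0.726% of all genes. The difference between the log2 ratios (E18.5 minus E16.5) was 4.12 for Actg2, 3.48 for Synm, 3.09 for Cnn1, 3.05 for Tagln, 2.30 for Myh11, 2.004 for Des, 1.78 for Acta2 and 1.65 for Tpm2. With 1 library per genotype and stage the difference between stages was not tested. With the length and GC trend subtracted, the E18.5 log2 ratio was below 1.5-fold for Myh11 (0.55), Des (0.52) and Tpm2 (-0.0015), and 5 of the 8 kept both folds (0.209% of all genes).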

How the results depend on the processing

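The E16.5 median of -0.28 was -0.38 with column sums made equal, and 7 members rather than 4 were then at least 2-fold lower, as with sums without erythroid markers (7). The E18.5 median of 0.77 was 0.35 with equal sums, 0.48 centred on all genes, 0.53 with upper quartile scaling, 0.34 with the length and GC trend subtracted and 0.38 with sums without erythroid markers. The 10 members at least 2-fold higher at E18.5 became 5 with equal sums, 5 with the trend subtracted and 6 without erythroid markers, and the 2 at least 2-fold lower became 1 with a pseudocount of 1. With E16.5 wild type in place of E18.5 wild type, 0 members were at least 2-fold lower, the median was 0.75, 33 of 35 were higher (39.8% of all genes) and 11 at least 2-fold higher (1.23%). That ratio sets libraries of different stage as well as different genotype against each other, and the 2 cannot be told apart in it. In wild type UGS with stage, the median of 0.12 was 0.41 with equal sums, 0.45 centred, 0.38 with upper quartile scaling, 0.51 with the trend subtracted, 0.38 without erythroid markers and 0.0125 at a minimum of 5 FPKM, and 6 members rather than 3 were at least 2-fold higher under all of these but the last. The mutant stage median of 1.01 was 1.11 with the trend subtracted. With the trend subtracted, the sign turned for 1 member at E16.5 (Tln1), for 6 at E18.5 (Actn1, Mylk, Smtn, Tpm2, Tpm4 and Zyx), for 9 in wild type with stage and for 2 in the mutant with stage. Among them, those at least 1.5-fold apart as deposited were Smtn (-0.015) and Tpm2 (-0.0015) at E18.5 and Ppp1r14a in wild type with stage (0.17). With equal sums the sign turned for 8 members at E18.5 and 8 in wild type with stage, and for none in the other comparisons. The order of libraries described held for 17 members with equal sums, 20 with upper quartile scaling and 19 centred. The settings with erythroid markers left out and with E18.5 wild type replaced were chosen after seeing the data. The cause of these shifts was not tested. Pooling leaves the spread between embryos unknown in these libraries. The study also measured several genes by RT-qPCR in individual UGS samples at both stages and describes a close match to its pooled values. Those measurements were not used here. No paired analysis was possible because each group is 1 library.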
